A study of Mus musculus with 78 samples.

Results

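The Zscan4 cluster is the group of 6 genes, Zscan4a to Zscan4f, that lies within 608 kb of mouse chromosome 7. The members were taken by name, Zscan4a through Zscan4f, which gave 6 of the 54446 gene identifiers in the RNA-seq tables and 6 of the 54435 in the TT-SLAM-seq table. Zscan4 genes encode proteins with a SCAN domain and zinc fingers. They are transcribed in the embryo at the 2-cell stage, when the mouse genome is first switched on, and in embryonic stem cells (ESCs) in short bursts in a small fraction of the cells at any time. They are known for a part in telomere maintenance and genome stability, and the transcription factor DUX and a burst of retrotransposon transcription accompany their expression. The 2-cell genes are held down in most ESCs by chromatin repressors, among them the TRIM28 corepressor pathway that places H3K9me3, a mark of silent chromatin.

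The series holds 78 samples, of which 30 are RNA-seq libraries, 12 are TT-SLAM-seq libraries and the rest are ChIP-seq, input, HiC and single-cell libraries. All tagged mouse ESCs (mESCs) were of the V6.5 line with the FKBP degron fused to endogenous TRIM28, obtained from picked single colonies, so that each line is a clone. The DMSO controls carried the same tagged alleles. In these cells 500 nM dTAG-13 (dTAG) degrades TRIM28. Poly(A) RNA-seq was made from tagged mESCs given 0.05% DMSO and after 2, 6, 24 and 96 h of dTAG. Untreated parental V6.5 mESCs, whose Trim28 is untagged, and neural progenitor cells (NPC, V6.5, DMSO) were profiled in the same way. Total RNA-seq came from an mESC line carrying doxycycline-inducible hairpins against endogenous retroviruses (ERVs), named shREPEATS in the labels and called the shERV line here. It had 3 groups of 24 h each, DMSO, 500 nM dTAG, and dTAG with doxycycline (dTAG + Dox). The protocol notes of all 3 groups give 2 µg/ml doxycycline for 24 h beforehand, whereas titles and treatment labels name doxycycline for the last group alone, and the groups are named here by their titles. TT-SLAM-seq, which reads RNA made during a short 4-thiouridine pulse, covered DMSO and 2, 6 and 24 h of dTAG. ChIP-seq peaks for H3K9me3, H3K27Ac, RNA polymerase II (Pol2) and the Mediator subunit MED23 covered DMSO and 24 h of dTAG. RNA-seq, TT-SLAM-seq, H3K9me3 and H3K27Ac groups held 3 libraries each, and Pol2 and MED23 groups held 2.

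The labels held against marker genes in summed TPM, with limits. The sum of 4 pluripotency markers (Pou5f1, Sox2, Nanog, Esrrb) was 1577 to 1635.45 TPM in DMSO, 904 to 988 after 24 h of dTAG and 152 to 180 after 96 h. It was 671 to 759 in shERV DMSO, 358 to 364 in shERV dTAG, 719 to 735 with Dox, 2609 to 2637 in parental mESCs and 414 to 431 in NPC, where Sox2, also a neural progenitor gene, was the one of the 4 above DMSO. The sum of 6 fibroblast markers (Col1a1, Col1a2, Col3a1, Postn, Dcn, Thy1), which feeder cells would carry, was 19.6 to 20.4 TPM in DMSO, 264 to 287 at 96 h, 96.4 to 117 in the shERV line and 98.9 to 102 in parental mESCs. The 4 neural markers summed to between 3173 and 3228 TPM in NPC. Trim28 mRNA, which the degron does not target, was 624 ± 2.28 TPM in DMSO, 372 ± 9.18 at 24 h and 192 ± 10.2 at 96 h (SD, n = 3), and 1398 ± 17.6 TPM in parental mESCs. The relative depth of the RNA-seq libraries ran from 0.281 to 1.51 of their median, the lowest being replicate 1 of 24 h dTAG.

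The members lie on both strands of the mm10 (GRCm38) chromosome. Zscan4a, annotated as an unprocessed pseudogene, is on the minus strand at chr7:10794242-10799057. Zscan4b follows on the minus strand at chr7:10900740-10905050, and Zscan4c on the plus strand at chr7:11005745-11010547. Zscan4c is the copy best known from ESCs. Zscan4d, the copy best known from the 2-cell embryo, is on the minus strand at chr7:11161374-11166159. Zscan4e lies on the minus strand at chr7:11306378-11310682 and Zscan4f on the plus strand at chr7:11397915-11402318. Zscan4b to Zscan4f are annotated as protein coding. A further 31 annotated genes lie between the first and last member, among them Zscan4-ps1, while Zscan4-ps2 and Zscan4-ps3 lie outside. These 3 are pseudogenes by name and annotated as protein coding. Trim28 is on the same chromosome, 1597 kb beyond the end of Zscan4f.

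The starts of the members are near copies of each other, which is why the stretch of 250 bases before each start is shown. RefSeq promoter windows (GRCm38.p6) matched 4 of the 6 members, and Zscan4a and Zscan4e are not in the table used. Each is written 5′ to 3′ on the gene's own strand, with capitals for the letters TATAAA and, where present, the E-box CANNTG, the motif type read by helix-loop-helix factors.
Zscan4b (minus strand, chr7:10905051-10905300): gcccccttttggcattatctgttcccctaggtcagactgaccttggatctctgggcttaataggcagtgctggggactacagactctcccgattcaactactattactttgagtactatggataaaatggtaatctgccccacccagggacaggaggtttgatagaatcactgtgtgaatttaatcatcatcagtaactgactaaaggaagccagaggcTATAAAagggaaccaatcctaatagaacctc
Zscan4c (plus strand, chr7:11005495-11005744): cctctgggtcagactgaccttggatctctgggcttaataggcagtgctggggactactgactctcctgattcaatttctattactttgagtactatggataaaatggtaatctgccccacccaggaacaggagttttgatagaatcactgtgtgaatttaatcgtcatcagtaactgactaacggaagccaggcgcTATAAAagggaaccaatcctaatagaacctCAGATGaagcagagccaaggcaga
Zscan4d (minus strand, chr7:11166149-11166398): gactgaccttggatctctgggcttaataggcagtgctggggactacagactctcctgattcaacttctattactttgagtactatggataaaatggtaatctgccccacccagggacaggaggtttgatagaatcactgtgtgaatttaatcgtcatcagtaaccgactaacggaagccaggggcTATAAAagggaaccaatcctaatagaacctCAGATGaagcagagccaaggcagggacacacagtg
Zscan4f (plus strand, chr7:11397665-11397914): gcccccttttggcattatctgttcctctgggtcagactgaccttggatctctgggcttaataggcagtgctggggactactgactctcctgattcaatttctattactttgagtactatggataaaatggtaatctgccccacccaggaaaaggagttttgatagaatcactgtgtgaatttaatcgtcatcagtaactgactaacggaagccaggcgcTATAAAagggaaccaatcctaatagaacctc

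TATAAA was in 4 of 4 windows, with its first base 31 bases before the start in Zscan4b and Zscan4f, 54 in Zscan4c and 65 in Zscan4d. Searched on both strands of windows of this length, TATAAA was in 12.4% of 32851 RefSeq promoters. It began 25 to 40 bases before the start, on the gene's strand, in 1.91% of them. CANNTG, in the form CAGATG, was in Zscan4c and Zscan4d, where it lay between TATAAA and the start, and was not in the windows of Zscan4b and Zscan4f, whose annotated starts come earlier in the shared sequence. CANNTG was in 66.2% of all promoters. TGCACAC, the motif reported for ZSCAN4 itself, was in none of the 4 windows and in 3.67% of all promoters. Aligned on TATAAA over 216 bases, all 4 members had the same base at 204 positions. Zscan4c and Zscan4f differed at 1 of the 216 positions (99.5% identity), and Zscan4b and Zscan4f, the least alike pair, at 11 (94.9%).

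The transcripts are also near copies, which bears on every level given per member. Of all 100-base windows of its annotated transcripts, Zscan4d had 70.4% and Zscan4a 60.9% that occur in the transcripts of no other gene. The share was 27.2% for Zscan4c, 23.7% for Zscan4b, 19.4% for Zscan4f and 18.5% for Zscan4e. Zscan4b shared 75.4% of its windows with Zscan4e, Zscan4c shared 55.3% with Zscan4f, and Zscan4f shared 67.5% with Zscan4-ps2. Reads from such windows cannot be given to 1 copy, so the split of TPM among Zscan4b, c, e and f is uncertain, and the sum over the cluster is given beside the members.

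All 6 members were expressed in tagged mESCs given DMSO. Zscan4f was highest at 65.5, 71.1 and 73.5 TPM in the 3 libraries, with a mean of 70.0 ± 4.1 (SD, n = 3). Zscan4e followed at 55.7 ± 1.95 TPM, Zscan4c at 47.9 ± 3.00 and Zscan4b at 41.7 ± 1.64. Zscan4d (36.2 ± 1.06 TPM) and Zscan4a (35.4 ± 1.49) were lowest, and they were the only neighbours in this order whose libraries overlapped. The cluster summed to 276, 284 and 300 TPM in the 3 DMSO libraries. In bulk RNA, fewer Zscan4-positive cells and less Zscan4 RNA per cell cannot be told apart. In NPC every member was listed at 0 in all 3 libraries.

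**Figure D1:**
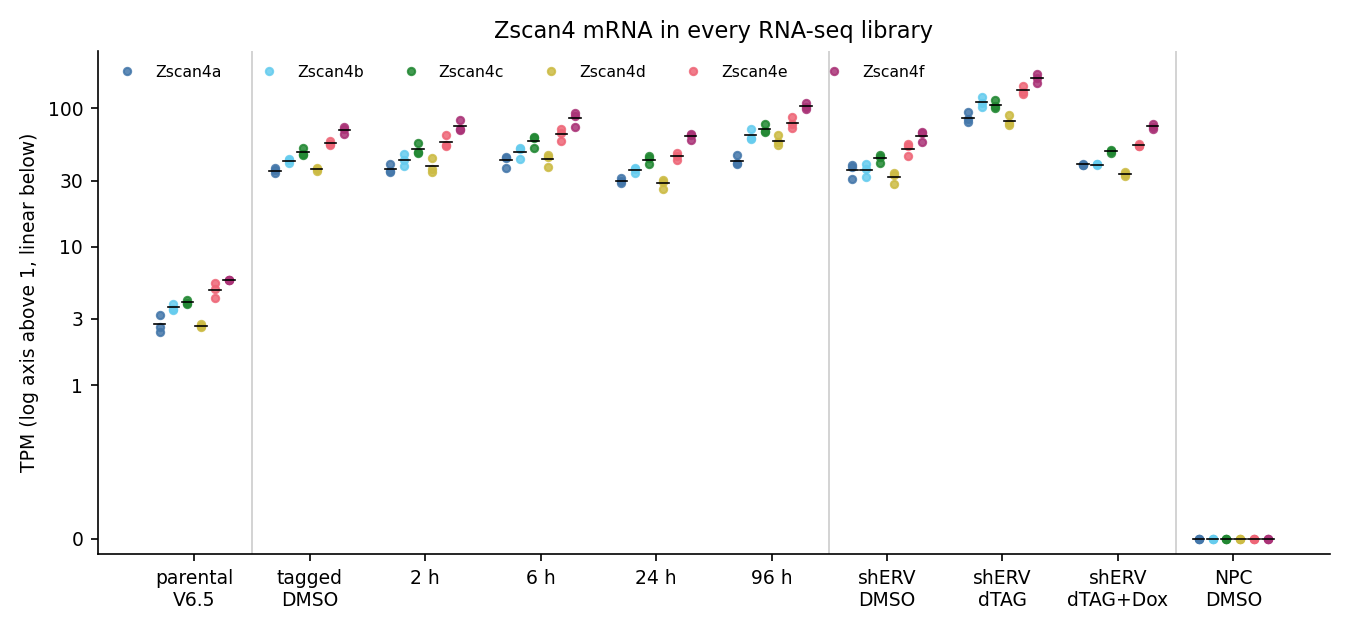
TPM of each of the 6 members (coloured points) in every RNA-seq library, on a symmetric log axis, with libraries arranged by group. Every member lies between 26.2 and 110 TPM in the time course, all NPC values are 0, and the shERV dTAG libraries stand highest.

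**Figure D2:**
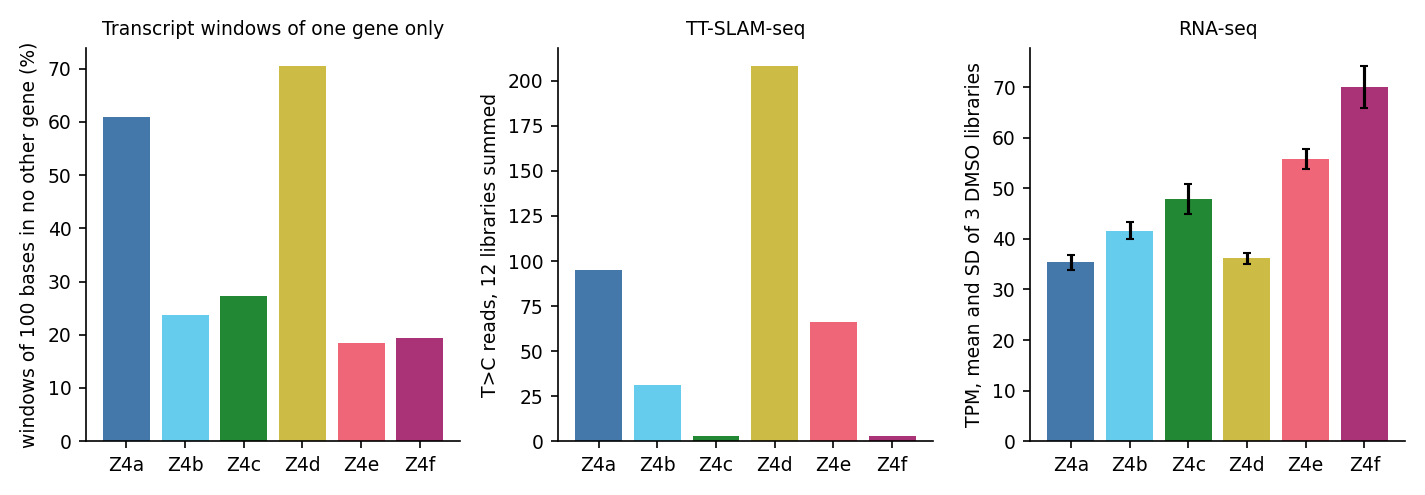
For each member (Z4a to Z4f for Zscan4a to Zscan4f), the percentage of 100-base transcript windows found in no other gene, the T>C reads summed over 12 TT-SLAM-seq libraries, and the mean TPM in DMSO with SD. Zscan4f has the highest TPM and 3 T>C reads, and Zscan4d has 208 reads at a TPM near the lowest.

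The parental comparison asks how the tagged clone compares with its line of origin, and the cluster was far lower in parental cells. The sum over the 6 members was 24.1, 23.9 and 23.0 TPM in the 3 parental libraries, 12.1-fold below DMSO of the tagged line. Zscan4f was at 5.78, 5.73 and 5.73 TPM, Zscan4c at 3.88, 3.93 and 4.1 and Zscan4d at 2.66, 2.62 and 2.74. No parental library reached the lowest tagged library for any member. All 6 members passed the test in parental against tagged DMSO (limma on log2(TPM + 0.5), called at Benjamini-Hochberg adjusted p below 0.05 and over 2-fold), by 10.2-fold (Zscan4b) to 11.5-fold (Zscan4d) lower, with adjusted p from 5.7e-10 to 4.1e-09. Of all 17458 genes tested, 9.15% were called lower. Of 26 other genes of the 2-cell programme, 22 were tested and 22 were called lower, with a median log2 change of -2.48 beside -0.09 over all genes. Duxf3, the copy of Dux in the tables and the factor that switches on 2-cell genes, was at 0.142 ± 0.0342 TPM in parental and 2.19 ± 0.252 in tagged DMSO (SD, n = 3). Growth notes, feeder and pluripotency marker sums, Trim28 mRNA and treatment differ between these groups as well as the tag. Their part in the result was not tested. In NPC against tagged DMSO all 6 members were called lower, and so were 20.7% of all genes. No fold is given because NPC was listed at 0.

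The time course asks what TRIM28 degradation does to the cluster from 2 to 96 h. No member changed by over 2-fold against DMSO at any of these times. After 2 h the sum was 286, 332 and 277 TPM, and after 6 h it was 365, 300 and 356. After 24 h it was 229, 251 and 253 TPM, below every DMSO library, and after 96 h 393, 453 and 404, above every DMSO library. Against the DMSO mean the sums stood at ratios of 1.04, 1.19, 0.853 and 1.45. At 2 h no member passed the adjusted p (log2 changes of 0.02 to 0.08, limma adjusted p 0.59 to 0.90, and 0 members under 0.05 unadjusted), where 15.3% of all 17922 genes passed in either direction. At 6 h, Zscan4a, Zscan4c and Zscan4f rose past the adjusted p by 0.24, 0.27 and 0.26 on the log2 scale (limma adjusted p 0.030, 0.025 and 0.028). Zscan4b, Zscan4d and Zscan4e had log2 changes of 0.21 to 0.23 with limma adjusted p of 0.065 to 0.072. Of all genes, 18.4% rose past the adjusted p at 6 h. With median centring or without the filter on low values 0 members passed, and with only the 2 groups compared 1 did. The count at 6 h ran from 0 to 6 members when 1 library was left out: it was 0 without DMSO replicate 1 or 2 or without 6 h replicate 1 or 3, and 6 without 6 h replicate 2.

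After 24 h of dTAG the members were at or below their DMSO level. Zscan4d was at 26.2, 29.3 and 30.4 TPM against 35.0, 36.4 and 37.1 in DMSO. Zscan4e was at 42.2, 47.3 and 45.4 TPM against 54.2, 55.1 and 57.9. Zscan4a was at 28.9, 29.8 and 31.0 TPM against 33.8, 35.5 and 36.8. For these 3 members no 24 h library reached a DMSO library. Zscan4b was at 33.8, 37.0 and 36.6 TPM against 42.0, 39.9 and 43.1, also without overlap. Zscan4c (39.4, 43.4 and 44.9 TPM against 45.9, 46.5 and 51.4) and Zscan4f (58.9, 64.1 and 64.9 against 65.5, 71.1 and 73.5) lay lower without overlap but missed the threshold. Zscan4a, Zscan4b, Zscan4d and Zscan4e fell past the adjusted p, by 0.24, 0.22, 0.33 and 0.31 on the log2 scale (limma adjusted p 0.015, 0.031, 0.0060 and 0.0058). Zscan4c and Zscan4f had log2 changes of -0.17 and -0.16 (limma adjusted p 0.096 and 0.11). Of all genes, 25.0% fell past the adjusted p. No member changed by over 2-fold, where 12.2% of all genes did in either direction. Without DMSO replicate 3, 2 members passed the adjusted p at 24 h. The median log2 level of the libraries rose by 0.29 over the tested genes, and relative to it the members were lower still.

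After 96 h all 6 members were above DMSO. Zscan4d was at 54.3, 63.7 and 56.5 TPM, Zscan4b at 59.5, 70.2 and 61.3, and Zscan4c at 67.8, 77.1 and 68.3. Zscan4f was at 99.4, 110 and 102 TPM, Zscan4e at 72.0, 86.7 and 76.3, and Zscan4a at 40.1, 45.9 and 39.3. Every 96 h library was above every DMSO library for each of the 6. The rise was 0.68 ± 0.09 on the log2 scale (SE) for Zscan4d, 0.60 ± 0.08 for Zscan4b, 0.56 for both Zscan4c and Zscan4f, 0.48 for Zscan4e and 0.23 ± 0.08 for Zscan4a. All 6 passed the adjusted p (limma, 9.8e-06 to 0.013), as 42.9% of all genes did upward. None changed by over 2-fold, where 32.7% of all genes did in either direction. The median log2 level of the libraries rose by 0.28, and with libraries centred on the median Zscan4a reversed to -0.04 while the other 5 stayed above 0. From 24 to 96 h the members rose by 0.47 (Zscan4a) to 1.01 (Zscan4d) on the log2 scale. All 6 passed the adjusted p in that comparison, as 37.4% of all genes did upward. Zscan4d alone, at 2.01-fold, was called with the 2-fold threshold, beside 13.7% of all genes, and it fell below 2-fold without 24 h replicate 1 or without 96 h replicate 2. Pluripotency markers fell and feeder markers rose in the 96 h libraries, as given above, and their part in these values was not tested.

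Shares of the cluster sum rose for some members and fell for others, as parts of a sum must when any of them moves. The split among Zscan4b, c, e and f is uncertain, as given above. Zscan4a made up 12.3% ± 0.130 of the sum in DMSO and 10.0% ± 0.251 at 96 h (SD, n = 3), without overlap. Zscan4d went from 12.6% ± 0.225 to 14.0% ± 0.125, also without overlap. Zscan4e went from 19.4% ± 0.148 to 18.8% ± 0.419 without overlap, and the other 3 overlapped. At 24 h the share of Zscan4d was lower than in DMSO, at 11.7% ± 0.290, the opposite of 96 h, and that of Zscan4e was also lower at 18.4% ± 0.474. Zscan4c went from 16.7% ± 0.406 to 17.4% ± 0.304 at 24 h and Zscan4f from 24.4% ± 0.656 to 25.6% ± 0.0571, all 4 without overlap, while Zscan4a and Zscan4b overlapped. The exact permutation test gave p = 0.1 for each share without overlap, the smallest that 3 against 3 libraries allow. These p-values were not corrected for the number of shares tested. Zscan4a and Zscan4d are the 2 members with the most sequence of their own. Pairwise correlations of the 6 members over the 15 time course libraries ran from 0.865 to 0.994, a description over libraries that share depth and treatment.

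**Figure D3:**
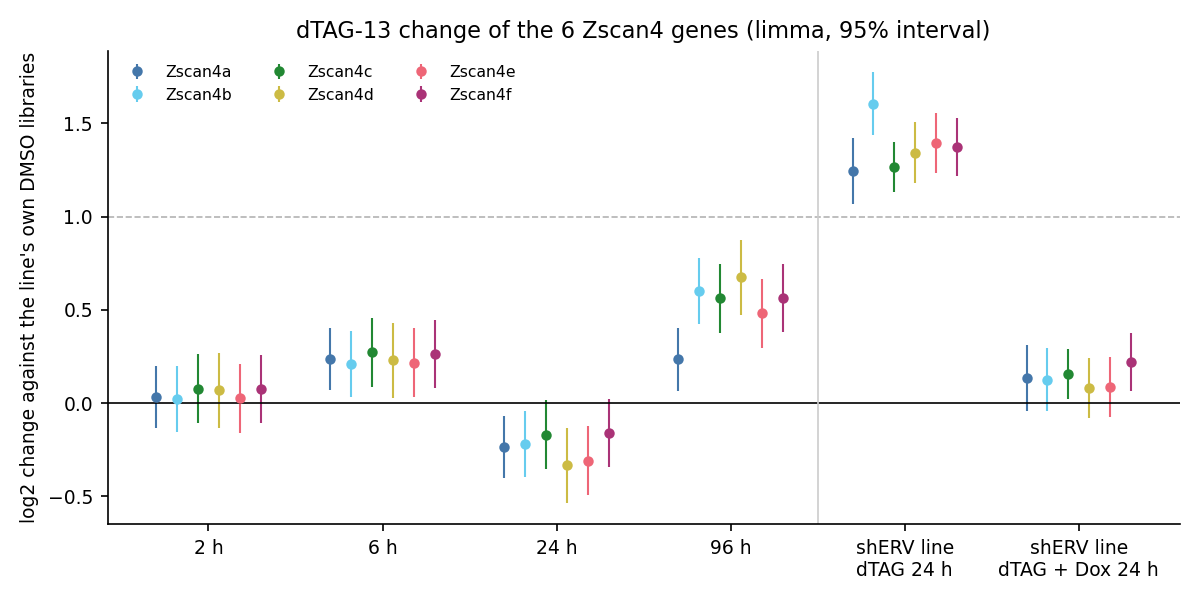
Log2 change of each member with its 95% interval in 6 comparisons, from limma fits on log2(TPM + 0.5), with dashed lines at 2-fold. The members lie within 0.34 of 0 at 24 h in the time course, and all 6 lie above 1.2 for dTAG in the shERV line.

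In the shERV line, which asks whether ERV transcripts matter for the response to TRIM28 loss, 24 h of dTAG raised every member over 2-fold. Zscan4f was at 56.9, 66.9 and 66.3 TPM in DMSO and 165, 153 and 177 with dTAG. Zscan4e was at 45.0, 55.3 and 52.9 TPM in DMSO and 132, 127 and 146 with dTAG. Zscan4b was at 31.8, 39.4 and 36.6 TPM in DMSO and 109, 101 and 121 with dTAG. The dTAG libraries stood far above the DMSO libraries for each of these 3. Zscan4c went from 40.4, 46.1 and 44.6 to 104, 99.5 and 114 TPM. Zscan4a went from 30.9, 37.8 and 38.7 to 83.0, 79.9 and 93.3 TPM. Zscan4d went from 28.4, 32.7 and 33.8 to 77.7, 76.0 and 89.5 TPM. None of the 6 overlapped between groups. The sum over the cluster was 233, 278 and 273 TPM in DMSO and 670, 636 and 741 with dTAG, a ratio of 2.61.

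All 6 members were called higher, where 2.38% of the 16166 genes tested were. The change was 3.04-fold for Zscan4b (log2 1.61 ± 0.08, SE), 2.63-fold for Zscan4e (1.39 ± 0.07), 2.59-fold for Zscan4f (1.37 ± 0.07), 2.54-fold for Zscan4d (1.34 ± 0.07), 2.41-fold for Zscan4c (1.27 ± 0.06) and 2.37-fold for Zscan4a (1.25 ± 0.08), with limma adjusted p of 3.4e-08 to 2.7e-07. Zscan4b went from 13.7% ± 0.383 to 16.2% ± 0.188 of the cluster sum, Zscan4a from 13.7% to 12.5% and Zscan4c from 16.7% to 15.5%, each without overlap (exact permutation p = 0.1, the smallest possible). The median log2 level of the libraries rose by 0.16 in this comparison. All 6 calls held in each of the 14 alternative settings computed for them.

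With dTAG + Dox the cluster was back near DMSO. Zscan4f was at 77.4, 73.6 and 70.4 TPM, Zscan4e at 55.6, 53.5 and 52.9 and Zscan4b at 39.2, 38.6 and 39.5. Zscan4c was at 49.7, 49.3 and 47.2 TPM, Zscan4a at 39.4, 39.1 and 39.0 and Zscan4d at 34.7, 33.4 and 32.4. The sum was 296, 287 and 281 TPM. Every dTAG + Dox library lay below every dTAG library for each member. All 6 were called lower against dTAG, by 2.16-fold (Zscan4c, Zscan4a) to 2.79-fold (Zscan4b) with limma adjusted p of 6.1e-08 to 7.5e-07, where 1.96% of all genes were called lower. Against DMSO the log2 changes were 0.08 (Zscan4d) to 0.22 (Zscan4f). None passed the adjusted p there (limma, 0.21 to 0.52), where 0.0619% of all genes passed in either direction. Unadjusted, 2 of the 6 were under 0.05, Zscan4c (limma p 0.025) and Zscan4f (limma p 0.0094). For Zscan4f the 95% interval of that difference was 0.07 to 0.37 and for Zscan4c 0.02 to 0.29, so a small excess over DMSO is within these data.

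The same contrast, 24 h of dTAG against DMSO, thus gave lower or like levels in the time course and higher levels in the shERV line, and the difference was tested by an interaction term over 12 libraries. It was 1.48 for Zscan4a, 1.82 for Zscan4b, 1.44 for Zscan4c, 1.68 for Zscan4d, 1.70 for Zscan4e and 1.53 for Zscan4f on the log2 scale. All 6 were called (limma adjusted p 5.2e-07 to 1.7e-06), where 2.11% of 17653 genes were called in this direction. The 2 experiments differ in line, RNA selection (poly(A) against total RNA), feeder layer, experiment and, by the protocol notes, doxycycline given beforehand. These cannot be told apart. The DMSO sums of the cluster were 276 to 300 TPM in poly(A) RNA and 233 to 278 TPM in total RNA. TPM of these 2 kinds of library is not a like measure, so levels are compared within each experiment alone. Duxf3 was at 3.25 ± 0.185 TPM after 24 h in the time course and at 5.41 ± 0.150 in shERV dTAG, against 2.19 ± 0.252 and 1.98 ± 0.382 in the matching DMSO groups (SD, n = 3).

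Other 2-cell genes, a list of 26 of which 22 were tested, moved less in the time course than in the shERV line by count. In the time course 0 were called in either direction at 2 h and at 6 h. At 24 h 1 was called higher, Tdpoz3 (log2 1.15), from a family of TD and POZ domain genes, where 10.1% of all genes were called higher, with a list median of 0.20 beside 0.13 over all genes. At 96 h 3 were called higher, Tdpoz3 (1.56), Usp17ld (1.16), from a deubiquitinase family, and Gm4340 (1.01), with a median of 0.72 beside 0.05. At that time 20.3% of all genes were called higher, so 3 of 22 is no more than the share over all genes. In shERV dTAG 13 of 22 were called higher, where 2.38% of all genes were, and 0 lower, with a median of 1.15 beside 0.14. The largest changes by name were Tdpoz3 (2.65), Usp17le (1.50), BC080695 (1.49), Usp17ld (1.41), Arg2 (1.38), a mitochondrial arginase, Gm20767 (1.31), Duxf3 (1.26) and AF067061 (1.23). With Dox 10 of the 22 were called lower against dTAG, where 1.96% of all genes were, with a median of -0.92 beside -0.04. Among the 10 were Tdpoz3 (-2.78), Usp17le (-1.56) and Duxf3 (-1.13). Against DMSO 0 of the 22 were called with Dox. The interaction was called higher for 8 of 22, and for 2.11% of all genes, with a median of 0.87 beside -0.002.

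Among 6 genes reported to act upstream of the 2-cell programme, none was called higher at 96 h or in shERV dTAG. Duxf3, called higher in shERV dTAG as given above, was counted with the other 2-cell genes and not among these 6. The interaction was called higher for 1 of the 6 and lower for 2, where 373 and 1167 of all 17653 genes were. At 24 h Dppa2, which with Dppa4 switches on Dux, fell by 1.08 on the log2 scale. At 96 h Tet1 (-3.54), Tet2 (-2.54), both DNA demethylation enzymes, and Dppa4 (-1.14) were called lower. In shERV dTAG Tet2 (-1.32), Tbx3 (-1.27), a T-box factor of ESCs, and Tet1 (-1.03) were called lower. With Dox these 3 were called higher against dTAG (1.52, 1.34 and 1.21). Of all 16166 genes tested in the shERV line, 232 were called lower with dTAG and 241 higher with Dox against dTAG. Among 14 chromatin repressors of the 2-cell state, Zfp42 (REX1) was called lower at 24 h (-1.26), at 96 h (-2.33) and in shERV dTAG (-1.49), where no other of the 14 was called. At 96 h Rif1 (-1.90), Trim28 (-1.70), Ncl (-1.51), Chaf1b (-1.13), a subunit of the CAF-1 histone chaperone, and Uhrf1 (-1.02) were also called lower. That makes 6 of 14 at 96 h, where 12.4% of all genes were called lower, and 1 of 14 at 24 h, where 2.01% were. In parental mESCs Zfp42 (1.45), Trim28 (1.16) and Tbx3 (1.50) were called higher than in tagged DMSO, where 393 of all 17458 genes were.

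The genes whose levels were most like the cluster mean over the 15 time course libraries were Zscan4-ps3 and Zscan4-ps2, which lie outside the cluster. Of 17916 other genes, these came first (Pearson's r 0.995 and 0.982), followed by Gm10696 (0.967), A430089I19Rik (0.967), Usp17lb (0.955), a deubiquitinase gene, Peg13 (0.943), an imprinted noncoding RNA, Vipas39 (0.940) and Gas8 (0.939). In the 9 shERV libraries, which did not choose them, the r was 0.999 for Zscan4-ps3, 1.00 for Zscan4-ps2, 0.996 for A430089I19Rik, 0.982 for Gm10696 and Usp17lb, 0.942 for Peg13, 0.882 for Vipas39 and 0.850 for Gas8. Zscan4-ps2 went from 36.7 ± 3.18 TPM in shERV DMSO to 97.7 ± 9.20 with dTAG, Zscan4-ps3 from 28.6 ± 2.47 to 77.7 ± 6.72 and Zscan4-ps1 from 17.8 ± 1.78 to 53.1 ± 5.12 (SD, n = 3). The Zscan4-ps genes share windows with the members, so their values are not separate from the members' reads. Gm18204, another gene inside the cluster, was called higher at 96 h (log2 1.12) and in shERV dTAG (1.36). Unlike the members, it was also higher at 24 h of the time course (0.63, limma adjusted p 0.0025), though by less than 2-fold. Its interaction of 0.72 was not called.

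Nascent transcription of the members was close to the limit of the TT-SLAM-seq data. The T>C reads of the tables, the reads with the conversion that marks labelled RNA, totalled 6480576 to 24259147 per library. The highest FPKM of any member in any library was 0.397, and none reached the filter of 0.5 FPKM in 3 libraries. Converted back to reads, the cluster had 406 T>C reads over the 12 libraries. Zscan4d had 208 of them (51.2%), Zscan4a 95, Zscan4e 66, Zscan4b 31, and Zscan4c and Zscan4f 3 each, with 0 reads for Zscan4c in 10 libraries and for Zscan4f in 9. The order differs from that of TPM, where Zscan4f was highest. Zscan4c and Zscan4f are the 2 members on the plus strand. On the plus strand, Zscan4-ps2 had 2 reads and Zscan4-ps3 had 35, and the minus-strand Zscan4-ps1 had 103, while plus-strand genes held 62.8 to 77% of the T>C reads of a library. How reads that match several copies were placed on them was not tested.

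Scaled to the T>C reads of each library (RPM), the cluster had 2.47, 1.67 and 2.28 reads in DMSO and 2.82, 3.17 and 1.35 at 2 h. It had 3.40, 2.90 and 2.89 at 6 h and 1.36, 1.02 and 3.24 at 24 h. The 6 h libraries lay above the DMSO libraries, and those of 2 h and 24 h overlapped them. These values rest on 18 to 55 reads per library, and the spread of 2 h and 24 h covers that of DMSO. With the filter dropped, limma called 0 of the 6 members at 2 h, 6 h and 24 h (lowest adjusted p 0.24), where 0.0547%, 0.133% and 1.21% of 34708 genes were called in either direction. A fit of the recovered reads (limma voom), which kept 4 members, also called 0. No change in transcription of the members passed a test in these data.

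H3K9me3 peaks were dense over the cluster in DMSO and sparser after 24 h of dTAG. They covered 15.4%, 21.7% and 15.1% of the 608 kb in the 3 DMSO libraries and 0.456%, 7.26% and 9.51% in the 3 dTAG libraries. The groups did not overlap, with means of 17.4% ± 3.73 and 5.74% ± 4.71 (SD, n = 3), and the exact two-sided permutation test gave p = 0.1, the smallest possible. Replicate 1 of dTAG stands apart with 11474 peaks in all against 104579 to 147611 in the other 5 libraries, and without it the dTAG mean was 8.38%. Genome-wide the peaks covered 2.59%, 3.91% and 2.90% in DMSO and 0.195%, 1.80% and 2.65% with dTAG. Relative to the genome the cluster thus held 5.94, 5.56 and 5.22 times the genome share in DMSO and 2.34, 4.04 and 3.60 times with dTAG, again without overlap (exact permutation p = 0.1, the smallest possible). With the 10000 strongest peaks of each library alone the difference was -3.18 percentage points, and with peaks of at least 3-fold enrichment -8.22.

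The peaks lay between the members more than on them. In DMSO 2 of the 6 gene bodies were touched in each library, Zscan4b in all 3, Zscan4e in replicates 2 and 3, and Zscan4c in replicate 1. With dTAG 0, 1 and 3 were touched, namely Zscan4d in replicate 2 and Zscan4a, Zscan4b and Zscan4e in replicate 3 (exact permutation p = 0.7). The widest cover of any body was 10.4%, in Zscan4e. Among all 55413 annotated genes, peaks touched 16.4 to 19.3% in DMSO and 2.96 to 14.6% with dTAG. Peaks in near-identical copies depend on how reads that match several places were kept, which was not tested.

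**Figure D4:**
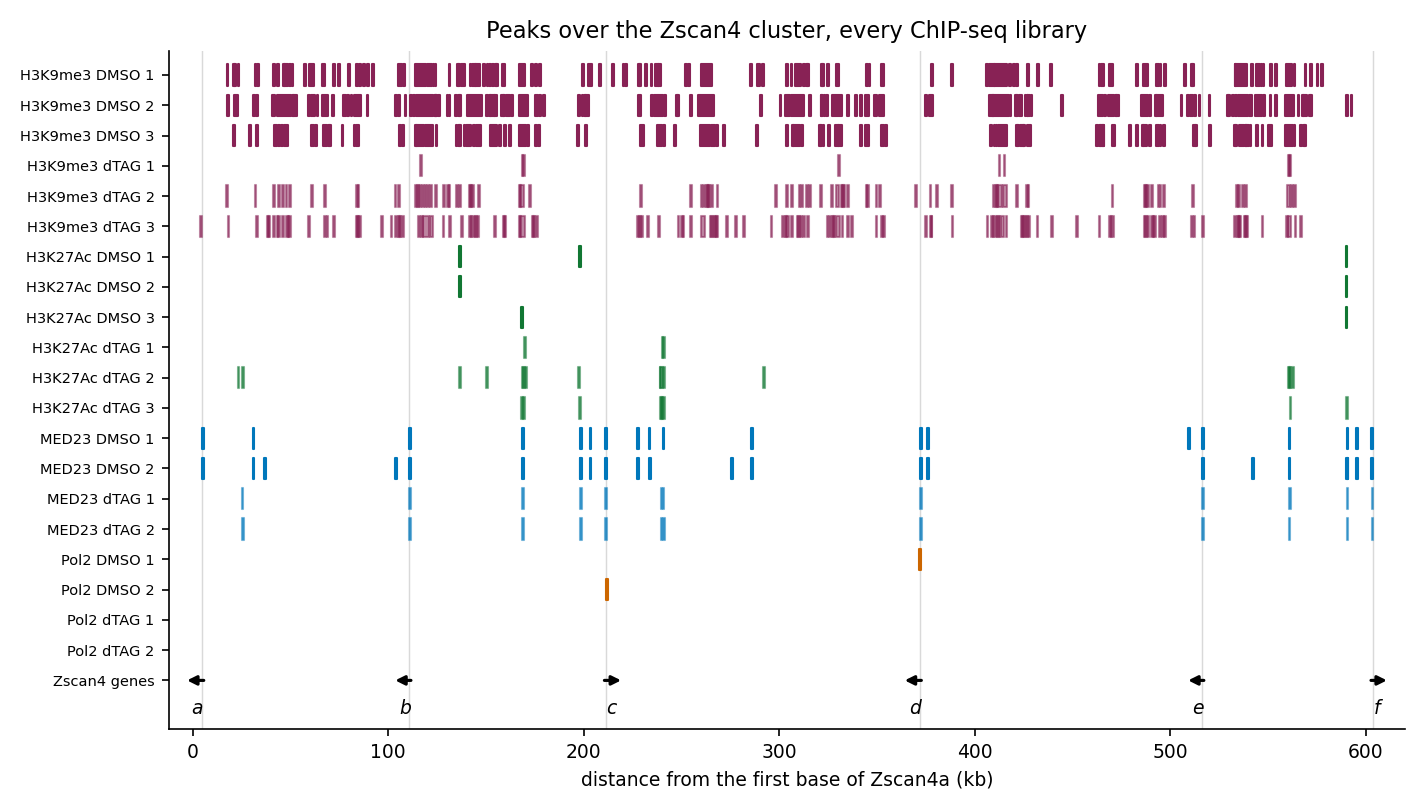
Deposited peaks of every ChIP-seq library along the cluster, in kb from the first base of Zscan4a, with the 6 members as arrows in their direction of transcription. H3K9me3 peaks cover 15.1 to 21.7% of the cluster in DMSO and 0.456 to 9.51% with dTAG, and MED23 peaks stand at the member starts.

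Mediator was the mark found at the members themselves. MED23 peaks lay within 2 kb of the start of 6 of 6 members in both DMSO libraries, where 35.6% and 35.7% of all genes had one. With dTAG 5 of 6 members kept one in both libraries, all but Zscan4a, where 11.7% and 10.6% of all genes did. Peak centres were 130 to 363 bases upstream of the start, in or just before the printed promoter stretch. Fold enrichment was highest at Zscan4c and Zscan4f, with 12.0 and 7.64 in DMSO and 6.18 and 5.49 with dTAG at Zscan4c. At Zscan4f it was 10.0 and 7.87 in DMSO and 6.98 and 6.42 with dTAG. At the other 4 members it was 3.8 to 5.77 in DMSO and, where a peak was called, 4.14 to 5.39 with dTAG. The starts are near copies, so these values per member also depend on how reads matching several copies were placed, which was not tested. The libraries held 63045 and 58925 MED23 peaks in DMSO and 15335 and 14551 with dTAG. The cluster held 19 and 23 of them in DMSO and 12 and 12 with dTAG, and the share of the cluster they covered was lower with dTAG, at 1.02% and 1.11% in DMSO and 0.545% and 0.566% with dTAG. The share of the genome was 1.41% and 1.42% in DMSO and 0.254% and 0.220% with dTAG. The ratio of the cluster share to the genome share was therefore 0.728 and 0.780 in DMSO and 2.15 and 2.57 with dTAG, while both shares were lower with dTAG. With 2 libraries a group the exact permutation test cannot go below p = 0.33, which it gave for both the count and the covered share. Of 27 places in the cluster with a MED23 peak in any library, 9 had one in all 4 libraries, and 5 of these 9 were member starts.

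Pol2 was called at 1 of 6 member starts in each DMSO library and at 0 of 6 with dTAG, and H3K27Ac, a mark of active promoters and enhancers, at 0 of 6 in every library. A Pol2 peak lay at the start of Zscan4d in DMSO replicate 1 (fold enrichment 4.91) and of Zscan4c in DMSO replicate 2 (4.56), and none lay within 2 kb of a member start with dTAG. Of all genes, 21.8% had a Pol2 peak within 2 kb of the start in both DMSO libraries, and 12.3% and 11.3% with dTAG, so the counts of 1 and 0 of 6 are near the share over all genes. An H3K27Ac peak lay there for 29.3 to 31.3% of all genes in DMSO and 18.3 to 31.8% with dTAG. Elsewhere in the cluster H3K27Ac peaks fell in 16 places, of which 12 were seen with dTAG alone, 0 with DMSO alone, and 3 in all 3 dTAG libraries and no DMSO library. Of the 12, 8 were seen in dTAG replicate 2 alone, and without that library 4 places were seen with dTAG alone. H3K27Ac libraries held 88050 to 117475 peaks in DMSO and 30259 to 117348 with dTAG.

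One of these 3 places differed between the groups in peaks of 3 marks. For this reason a part of it is shown, centred on the overlap of MED23 peaks of both dTAG libraries and not on the whole place. The place spans chr7:11033356-11034656, 22.8 kb past the end of Zscan4c, with no annotated gene on it, and was chosen after its values were seen. H3K9me3 peaks were there in 3 of 3 DMSO libraries (fold enrichment 4.84, 3.32 and 3.44) and in 0 of 3 dTAG libraries. H3K27Ac peaks were there in 0 of 3 DMSO and 3 of 3 dTAG libraries (3.32, 5.45 and 3.32). They covered 9.92%, 97.2% and 61.6% of the place in these dTAG libraries. MED23 peaks were there in 0 of 2 DMSO and 2 of 2 dTAG libraries (highest fold enrichment 4.94 and 5.13). A second MED23 place, chr7:11034630-11034911, runs into the end of this one. It had a peak in 1 DMSO library and 2 dTAG libraries, the highest at 4.94. In dTAG replicate 1, 2 MED23 peaks touched the place shown, so the 4.94 given for it may belong to this second place. No Pol2 peak lay there. The 300 bases of chr7:11033651-11033950 (mm10, plus strand) are written with the 221 bases inside the MED23 peaks of both dTAG libraries in capitals.
chr7:11033651-11033950: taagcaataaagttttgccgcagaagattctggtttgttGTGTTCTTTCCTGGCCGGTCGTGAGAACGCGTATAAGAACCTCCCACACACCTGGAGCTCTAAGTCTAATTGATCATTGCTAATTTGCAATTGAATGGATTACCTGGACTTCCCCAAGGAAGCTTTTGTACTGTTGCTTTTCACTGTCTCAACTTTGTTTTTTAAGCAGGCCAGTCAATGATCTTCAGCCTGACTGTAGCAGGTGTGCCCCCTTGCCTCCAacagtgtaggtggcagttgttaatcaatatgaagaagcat

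**Figure D5:**
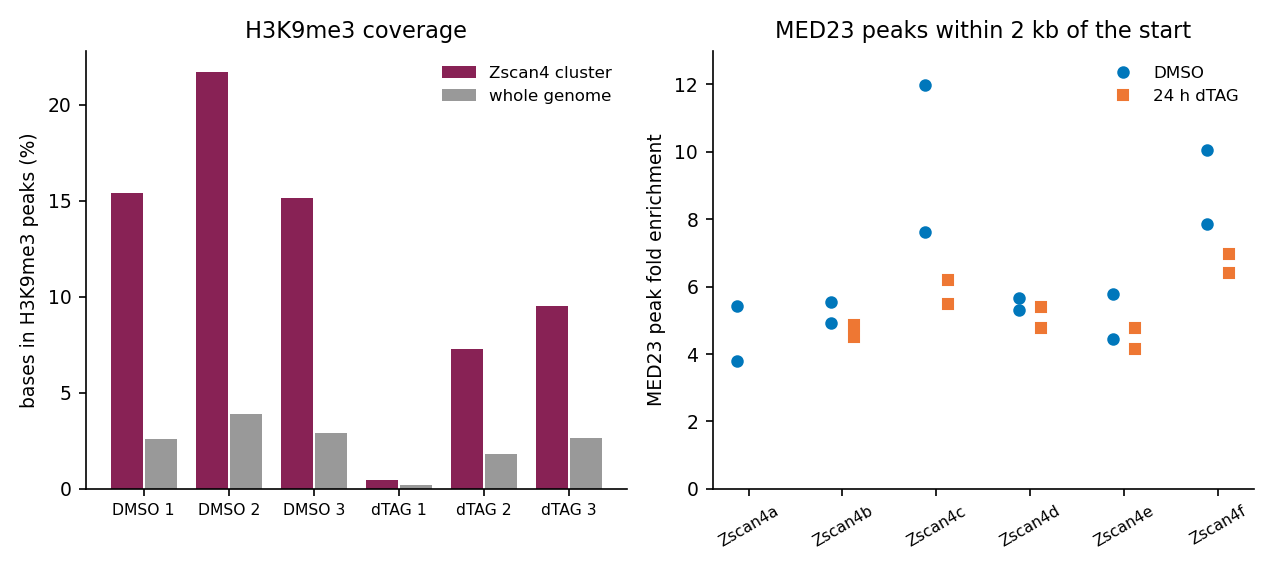
Left, percentage of the cluster and of the genome covered by H3K9me3 peaks in each library; right, MED23 fold enrichment at the start of each member in each library. The cluster stands above the genome in all 6 H3K9me3 libraries, and Zscan4c and Zscan4f have the strongest MED23 peaks.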

How the data were processed

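Members and gene lists were chosen with earlier results of these data known. Per the labels and the study's methods, RNA-seq reads were trimmed with cutadapt 2.4, aligned to mm10 with STAR 2.7.5a and quantified with StringTie 2.0.6, versions being those in the submitters' processing notes. The deposited values are TPM per gene, with per-base coverage and FPKM beside them in the same tables, and gene positions as in GENCODE vM21. For TT-SLAM-seq the authors deposited 1 FPKM table of T>C reads, aligned with SLAM-DUNK on GENCODE VM19 and counted with stranded htseq-count, in which a read overlapping several genes counts for each. ChIP-seq reads were aligned with BWA and duplicates handled with GATK 4.1.4.1, and the authors deposited MACS2 peaks per library, with a fold enrichment (ratio) over input and −log10 of the q-value. The count of columns that no sample explained was 0. Other files of the series were not used here.

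TPM or FPKM were taken as log2(value + 0.5), genes with at least 1 TPM (or 0.5 FPKM) in 3 or more libraries were kept, and each experiment was fitted on its own with limma 3.58.1 (lmFit, eBayes with trend) in R 4.3.3: 12 TT-SLAM-seq libraries, 15 of the time course, 9 of the shERV line, 9 for parental, tagged DMSO and NPC, and 12 for the interaction. P-values were adjusted by Benjamini-Hochberg over all genes tested, and a gene was called at adjusted p below 0.05 and over 2-fold. Fold changes are on the log2(value + 0.5) scale, which understates changes of low genes. Named were all 6 members, list genes called in a comparison (at most 8 per list by size), the 8 genes most correlated with the cluster mean over the time course, and genes inside the cluster. A line of 1 clone and replicates not stated to be separate cultures mean that p-values measure the spread between these libraries alone.

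TPM keeps no depth, so relative depth came from the ratio of coverage to TPM (0.281 to 1.51). FPKM of TT-SLAM-seq returned whole reads for 98.3 to 99.4% of values up to 20 reads, within 0.1 read, when the FPKM was read as scaled by gene length from start to end. Counts of reads cover counting error only. Peaks were compared by bases covered and by overlap of at least 1 bp, with exact two-sided permutation tests over libraries. Positions and sequences are GRCm38 (mm10), and promoters are RefSeq's. Scripts ran on Python 3.11.15 (pandas 2.3.3, numpy 2.4.6, matplotlib 3.10.9) and were tested on simulated data. Replicate numbers were checked for pairing through deviations from group means: same-numbered libraries correlated at -0.20 to 0.18, not all above 0.1, so the numbers were not taken as pairs. Alternatives were other pseudocounts, no filter, a mean filter of 5 TPM, median centring, the FPKM column, 2-group fits, a replicate block, leaving out each library, peak thresholds and overlap rules.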

Additional observations from a re-analysis of the deposited data

Results flagged for a closer look

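The effect of 24 h of dTAG on the cluster was not the same in both experiments by a test of the difference itself, an interaction term in limma over 12 libraries. On the log2 scale the change in the shERV line exceeded that in the time course by 1.48 for Zscan4a, 1.82 for Zscan4b, 1.44 for Zscan4c, 1.68 for Zscan4d, 1.70 for Zscan4e and 1.53 for Zscan4f. The limma adjusted p ran from 5.2e-07 to 1.7e-06, each dTAG library of the shERV line was above its DMSO libraries, and each 24 h library of the time course was below its own. Line, RNA selection, feeder layer, experiment and, by the protocol notes, doxycycline given beforehand differ between both data sets and cannot be told apart.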

How the results depend on the processing

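Of 1250 values recomputed for 95 results, 1217 were counted as the same. For a log2 change this means the same sign and the same call with the 2-fold threshold. For the H3K9me3 share it means the same sign, and for a count a value close to the main one. Counts past the adjusted p alone could thus differ and still be counted as the same. Over all alternatives they ran from 2 to 6 members at 24 h and from 5 to 6 at 96 h. The call of Zscan4d from 24 to 96 h was lost, leaving 0 members called, with a pseudocount of 1 and with the FPKM column, and leaving out 1 library gave 0 to 1. The members past the adjusted p at 6 h were 0 without the filter and with median centring, 1 with only the 2 groups compared, and 0 to 6 with 1 library left out. At 24 h they were 2 to 4 with 1 library left out. H3K9me3 overlaps summed over libraries, 6 in DMSO and 4 with dTAG, were 0 and 0 when 50% of the gene body had to be covered and 2 and 2 within 2 kb of the start. MED23 peaks at members, 12 in DMSO and 10 with dTAG, were 5 and 0 within gene bodies. Direction reversed for Zscan4a at 96 h with median centring (-0.042), which follows from the shift of the medians. At 2 h, leaving out 1 library gave -0.028 to 0.071 for Zscan4a, -0.050 to 0.087 for Zscan4b, -0.026 to 0.14 for Zscan4d and -0.058 to 0.073 for Zscan4e, with the values below 0 coming without 2 h replicate 2 and, for Zscan4b, also without DMSO replicate 2. For dTAG + Dox against DMSO, median centring gave -0.010 for Zscan4d and -0.0080 for Zscan4e, and leaving out 1 library gave -0.0027 (without shERV DMSO replicate 1) to 0.14 for Zscan4e. None of these differences passed the test. The cause of the other changes was not tested. The replicate block changed 0 of 85 results, with 6 members called for dTAG in the shERV line and 6 for the interaction. Every group held the same replicate numbers, so a block could not move the log2 changes, and only the calls were open to change. H3K27Ac places seen with dTAG alone, 12, were 4 without dTAG replicate 2 and 12 to 13 without any other library, an alternative chosen after seeing the data. TT-SLAM-seq values rest on few reads per library, and how reads matching several copies were placed was not tested.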

Other observations

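Gm7789 and Gm45598, annotated between the members, were under the filter and were not tested. Gm7789 was listed at 0 TPM in DMSO and at 0.715 ± 0.270 at 24 h of dTAG. Gm45598 went from 0.0508 to 0.561 TPM (means, n = 3). Neither stood as high in any other dTAG group. At 96 h Gm7789 was at 0 and Gm45598 at 0.038 TPM. In shERV dTAG they were at 0.057 and 0.060 TPM, against 0.083 and 0.047 in shERV DMSO. Parental mESCs had Gm7789 at 0.259 TPM. MED23 peaks also lay within 2 kb of the start of Zscan4-ps2, outside the cluster, in all 4 libraries, with fold enrichment of 8.82 and 7.29 in DMSO and 6.01 and 8.38 with dTAG. At Zscan4-ps3 they were called in DMSO alone (3.81 and 3.16), and at Zscan4-ps1 in DMSO replicate 2 alone (3.45).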
